A study of Mus musculus with 257 samples.

Results

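WT mouse cerebella of postnatal day 13 (P13, 5 libraries) and of day 30 or later (P30+, 5 libraries) were compared. They are 10 of the 257 libraries of a study of the X-linked gene Ddx3x, which encodes an RNA helicase, in cerebellum and medulloblastoma, and they were chosen by their labels alone. Each library held the total RNA of a whole flash-frozen cerebellum. The WT labels give no Cre driver, floxed allele, treatment, strain, sex or litter, so the p-values measure the spread between these samples. Beside them stand the WT cerebella of the embryonic age E16.5 and of P5, with 5 libraries each, and 29 cerebella of P13 and P30+ from 3 further genotypes: BD-FLPlus (females with 1 floxed Ddx3x copy), BD-FLY (males with their only copy floxed) and BD-FL-FL (females with both copies floxed). In these names B is read as Blbp-Cre, whose driver is active in Blbp-positive progenitors of the hindbrain, and D as floxed Ddx3x, so the BD groups are no controls without Cre. Counts per library ran from 12606224 to 19898201 in the 10 WT libraries. Levels are CPM, counts per 1e+06 counts of a library.

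The mouse cerebellum is still being built at P13. Granule neuron progenitors divide in the external granule layer under Sonic hedgehog (Shh) from Purkinje cells, leave the cell cycle, migrate inwards along Bergmann glia and mature in the internal granule layer. By the end of the first postnatal month that layer of progenitors is gone, granule cells have taken up their adult receptors and channels, parallel fibre synapses on Purkinje cells are in place and most axons that will be myelinated have their sheath. The comparison thus spans the end of neuron production and the maturation of the circuit. In whole tissue, fewer cells of a type and less RNA per cell cannot be told apart.

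The libraries were first read against marker genes of the labelled tissue, as plotted in the chart of tissue marker genes. Gabra6, the GABA-A receptor subunit that defines cerebellar granule neurons, had 551, 471, 3.94, 339 and 302 CPM in P13 replicates 1 to 5 and 764, 924, 689, 647 and 763 CPM in P30+ replicates 1 to 5. P13 replicate 3 thus held almost none of it, and the Purkinje gene Pcp2 followed with 233, 232, 3.39, 133 and 152 CPM in the P13 libraries, against 184 to 261 CPM at P30+. The same library was low in Zic1, a granule lineage factor, at 41.6 CPM against 1135 to 1555 CPM in the other P13 libraries. It was high in the midbrain factors Pax7 (28.7 CPM), Pou4f1 (22.3 CPM), Tfap2d (32.4 CPM) and Pou4f2 (31.2 CPM), and in the glutamate transporter gene Slc17a6, with 68.8, 76.1, 618, 126 and 285 CPM in the P13 libraries. The sum of these 4 midbrain factors was 114.6 CPM in P13 replicate 3, 54.1 CPM in P13 replicate 5 and 0.159 to 1.32 CPM in the other 8 libraries. The library labelled P13 cerebellum replicate 3 therefore goes against its tissue label, and P13 replicate 5 carries both cerebellar and midbrain genes. A smaller foreign share was seen in P13 replicate 4, where the noradrenergic genes Slc6a2 and Dbh reached 24.8 and 13.9 CPM, against at most 1.009 and 1.11 CPM in the other libraries. The choroid plexus gene Ttr ran from 1.31 to 2215 CPM at P13 and from 3.73 to 3472 CPM at P30+, with no order by age, and 0 of 8 choroid plexus genes passed the test.

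**Figure D1:**
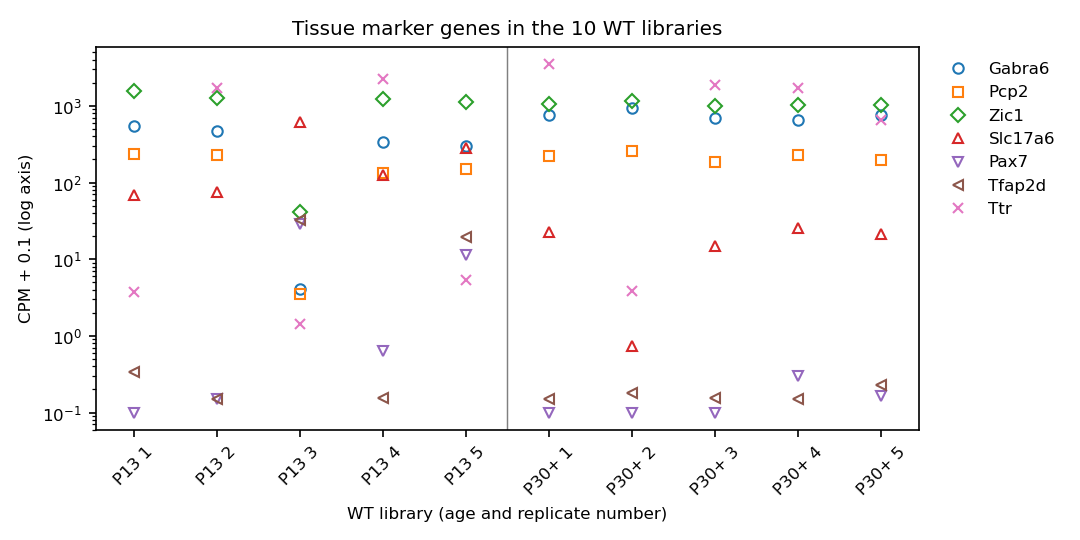
Level of 7 tissue marker genes in each of the 10 WT libraries, as CPM plus 0.1 on a log axis, P13 left and P30+ right of the line. P13 replicate 3 is low in Gabra6, Pcp2 and Zic1 and high in Pax7, Tfap2d and Slc17a6, and P13 replicate 5 holds both sets.

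Counts of called genes are therefore given for all 10 libraries and for the 8 without P13 replicates 3 and 5. A gene said to rise or fall with no number of libraries named was called in both fits. The share of all genes whose groups did not overlap was not counted, so a lack of overlap describes the named gene only. The 8-library value is an alternative chosen after these markers were seen. Levels given as mean ± SD are over the 8 libraries (n = 3 at P13 and n = 5 at P30+), and ± after a log2 fold change is its standard error. A gene was called when its adjusted p was under 0.05 over all genes tested (edgeR's quasi-likelihood test with Benjamini-Hochberg adjustment). With 10 libraries 5623 of 17416 genes were called (32.3%), 2486 higher at P30+ (14.3%) and 3137 lower (18%). With 8 libraries 5921 of 17896 genes were called (33.1%), 2823 higher (15.8%) and 3098 lower (17.3%). Counts of called members in the gene lists below are to be read against these shares. Of the genes tested in both fits, 4470 passed in the same direction with and without the 2 libraries, and 0 changed direction. A further 1153 passed only with them and 1305 only without them. At least 2-fold differences were called for 784 genes higher and 1181 lower in the 8 libraries. Ddx3x itself had 300.4 to 369 CPM at P13 and 339 to 429 CPM at P30+, so the ages overlapped. The titles of the deposit run through the alphabet more than once, and 4 of 5 P30+ libraries stand in the first such run against 1 of 5 P13 libraries. With this listing run as a term, 3301 genes were called with 10 libraries and 5759 with 8. What the run stands for is not stated, so its part in the result was not tested.

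Genes of cell division fell steeply. Of 20 cell cycle genes 16 were called lower with 10 libraries and 17 with 8, and 0 higher, with a median log2 fold change of -2.81 and -3.03, against -0.027 and -0.0057 over all genes tested. Mki67, a protein of dividing cells, had 50.7, 66.7, 11.4, 74.9 and 59.6 CPM in P13 replicates 1 to 5 and 1.04, 1.59, 0.655, 1.26 and 1.69 CPM in P30+ replicates 1 to 5. The groups did not overlap, and the lowest P13 value came from replicate 3, the library with little cerebellar RNA. Its log2 fold change was -5.36 ± 0.49 with 10 libraries and -5.63 ± 0.22 with 8 (adjusted p 3.86e-05 and 9.72e-08). Top2a, the topoisomerase of replicated chromosomes (GRCm38 chr11:98992943-99024189), had 48.3, 66.8, 12.4, 64.3 and 48.5 CPM in P13 replicates 1 to 5 and 1.15, 2.06, 1.2, 1.11 and 1.62 CPM in P30+ replicates 1 to 5. Cdk1, the kinase that starts mitosis, fell from 10.8 ± 2.68 to 0.378 ± 0.207 CPM, and its partner Ccnb1 from 10.7 ± 1.99 to 0.312 ± 0.167 CPM. Ccnd2, the cyclin D of granule progenitors, fell from 105 ± 15.5 to 10.9 ± 3.77 CPM, or 9.1-fold in the 8-library fit. The other cyclin D gene on the list, Ccnd1, was not called at 52.7 ± 6.0 CPM at P13 and 39.4 ± 7.21 CPM at P30+, and neither was Ccne1 at 8.93 ± 1.42 CPM at P13 and 10.5 ± 1.52 CPM at P30+. Pcna, the sliding clamp of DNA polymerase, went from 36.1 ± 4.23 to 25.8 ± 2.1 CPM, a log2 fold change of -0.41 ± 0.09 with 8 libraries, and Mcm2, a helicase subunit, from 21.2 ± 5.47 to 11.9 ± 2.19 CPM (-0.76 ± 0.17).

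In promoters of late cell cycle genes a CCAAT box and a cell cycle genes homology region (CHR) lie close to the start of transcription. This is background from other work. Promoters of 4 members that fell are shown, chosen because the stretch shown holds both motifs. The stretches below are the 150 bases before the RefSeq start in GRCm38.p6, 5′ to 3′ on the gene's strand, with each CCAAT or ATTGG and each CHR core (TTTGAA or TTCAAA) in capitals.
Top2a (chr11:99024190-99024339, minus strand): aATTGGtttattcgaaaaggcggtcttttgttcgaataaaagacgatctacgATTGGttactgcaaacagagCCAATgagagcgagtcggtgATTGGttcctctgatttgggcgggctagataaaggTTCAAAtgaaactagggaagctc
Mki67 (chr7:135716380-135716529, minus strand): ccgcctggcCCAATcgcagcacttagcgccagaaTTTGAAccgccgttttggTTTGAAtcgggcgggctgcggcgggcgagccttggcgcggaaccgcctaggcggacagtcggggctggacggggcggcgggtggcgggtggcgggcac
Kif11 (chr19:37376232-37376381, plus strand): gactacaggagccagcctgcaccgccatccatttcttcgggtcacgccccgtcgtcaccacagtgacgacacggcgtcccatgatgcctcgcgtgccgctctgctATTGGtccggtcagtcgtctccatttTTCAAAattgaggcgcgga
Cdk1 (chr10:69352913-69353062, minus strand): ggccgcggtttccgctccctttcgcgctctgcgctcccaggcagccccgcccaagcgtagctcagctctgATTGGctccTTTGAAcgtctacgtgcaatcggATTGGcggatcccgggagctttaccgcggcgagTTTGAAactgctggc
Top2a has 4 CCAAT letters and 1 CHR core in this stretch, Cdk1 has 2 of each, Mki67 has 1 CCAAT and 2 CHR cores, and Kif11 has 1 of each. The last base of the core nearest to the start lies 10 bases before it in Cdk1, 14 in Kif11, 18 in Top2a and 93 in Mki67. In the RefSeq promoter table (250 bases before to 50 after each start, both strands, 0 overlaps between the 2 motifs in the stretches shown), 15 of the 20 cell cycle genes had an entry. Of these 13 held CCAAT, 8 held a CHR core and 8 held both (53.3%). Over all 27025 genes with an entry the shares were 41.1%, 20.2% and 8.97%. Among 11853 genes tested with 8 libraries that had an entry, 7.33% held both. Of the 13 cell cycle genes with an entry that were called lower in both fits, 7 held both (53.8%). A match of letters is a description and no measured site.

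Genes of granule progenitors and of the Shh response did not move as 1 block. With 8 libraries 9 of 14 were called lower and 1 higher (6 and 1 of 13 with all 10). Atoh1, the factor that defines granule progenitors, was at 2.47, 4.28, 0, 2.07 and 2.81 CPM in the P13 libraries and at 0, 0, 0, 0.0504 and 0 CPM in the P30+ libraries, so it was low at P13 already, and 4 of 5 P30+ libraries held no read of it. It was called lower with 8 libraries (adjusted p 9.38e-06) and left out by the low-count filter with 10. Mycn, a driver of progenitor division, fell from 24.8 ± 3.05 to 4.28 ± 1.006 CPM, with a log2 fold change of -2.33 ± 0.30 with 10 libraries and -2.45 ± 0.17 with 8. Sfrp1, a secreted Wnt inhibitor, fell from 45.5 ± 5.64 to 6.61 ± 2.38 CPM. Barhl1, a homeobox factor of the granule lineage, fell from 90.5 ± 22.9 to 17.3 ± 4.6 CPM, and Mfap4, a matrix protein gene, from 48.1 ± 16.3 to 1.44 ± 0.272 CPM. Genes at the receptor end of the pathway gave another picture. Ptch1, the Shh receptor and also a Shh target, had 257, 216, 144, 223 and 187 CPM in P13 replicates 1 to 5 and 332, 353, 306, 269.8 and 277 CPM in P30+ replicates 1 to 5, and the groups did not overlap. It rose by a log2 fold change of 0.62 ± 0.14 with 10 libraries and 0.47 ± 0.12 with 8 (adjusted p 0.00768 and 0.0124). Gli1, the target gene most often used to read Shh signalling, was not called at 26.4 ± 8.78 CPM at P13 and 27.2 ± 5.07 CPM at P30+. Boc and Hhip, a co-receptor and a decoy of Shh, were not called either, at log2 fold changes of 0.21 ± 0.15 and 0.25 ± 0.24 with 8 libraries.

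Genes of migrating and immature granule neurons fell almost without exception. With 8 libraries 24 of 26 were called lower and 0 higher, with a median log2 fold change of -1.69. With 10 libraries 19 of 25 were called lower and the median was -1.31. Dcx, a microtubule protein of migrating neurons, had 463, 389, 61.3, 509 and 449 CPM in P13 replicates 1 to 5 and 8.33, 9.6, 9.34, 13 and 11.6 CPM in P30+ replicates 1 to 5. Again P13 replicate 3 was the lowest of its group and still above every P30+ library. Its log2 fold change was -5.12 ± 0.50 with 10 libraries and -5.38 ± 0.18 with 8. Nhlh1, a helix-loop-helix factor of newborn neurons, had 38.6, 46.1, 0.383, 50.02 and 40.4 CPM in P13 replicates 1 to 5 and 0.104, 0.159, 0.328, 0.101 and 0.13 CPM in P30+ replicates 1 to 5. With 10 libraries the low-count filter left it out. It fell by a log2 fold change of -7.97 ± 0.22 with 8 (adjusted p 1.52e-08). Igfbpl1, a gene of the insulin-like growth factor binding protein family (GRCm38 chr4:45809468-45826923), fell from 76.9 ± 19.3 to 0.256 ± 0.146 CPM, the largest fall of a gene above a mean log2 CPM of 1 in both fits, at -7.67 ± 0.92 with 10 libraries and -8.11 ± 0.26 with 8. Draxin, a secreted axon guidance protein, fell from 78.3 ± 12.2 to 0.665 ± 0.232 CPM, and Insm1, a zinc finger factor of neuronal progenitors, from 74.1 ± 9.54 to 0.456 ± 0.123 CPM. Sox11, a factor that turns on neuron genes, fell from 123 ± 15.8 to 4.66 ± 0.861 CPM. Dpysl3 and Marcksl1, both regulators of growth cone cytoskeleton, fell from 305 ± 36.1 to 28.1 ± 4.06 CPM and from 257 ± 32 to 24.9 ± 3.77 CPM. Smaller shifts were seen for the factor gene Neurod1, which granule neurons keep as adults: 634 ± 122 CPM at P13 and 389 ± 43.2 CPM at P30+, a log2 fold change of -0.64 ± 0.16 that was called with 8 libraries and not with 10 (-0.28 ± 0.72, adjusted p 0.789). The 2 members without a call in the 8 libraries were Gap43, a growth cone protein that was called lower with 10 libraries (-0.68 ± 0.21 against -0.29 ± 0.11), and the netrin receptor gene Unc5b (-0.22 ± 0.09).

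Genes of mature granule neurons were mostly called higher with 8 libraries and less often with 10. With 8 libraries 13 of 18 were called higher and 1 lower (median log2 fold change 0.83). With 10 libraries 7 were called higher and 0 lower (median 0.96). Gabra6, whose values stand above, rose with 8 libraries by a log2 fold change of 0.81 ± 0.18 (adjusted p 0.00612) and was not called with 10 (1.24 ± 0.75, adjusted p 0.223). Cbln3, a secreted synaptic protein made by granule neurons and partner of Cbln1, had 941, 656, 7.49, 559.6 and 384 CPM in P13 replicates 1 to 5 and 1562, 1775, 1969.9, 1493 and 1759 CPM in P30+ replicates 1 to 5. Its lowest P30+ library was above its highest P13 library, and the log2 fold change was 1.32 ± 0.20 with 8 libraries. Cbln1, the protein that ties parallel fibres to Purkinje dendrites, rose from 706 ± 75.2 to 928 ± 65.9 CPM with 8 libraries (0.46 ± 0.12). Chn2, a Rac GTPase activator, rose from 375 ± 85.8 to 741 ± 70.3 CPM, called in both fits. Kcnd2, an A-type potassium channel of granule cells, rose from 195 ± 43.5 to 356 ± 55.5 CPM, also in both. Nab2, a corepressor of Egr factors, rose from 30.8 ± 15.1 to 87.4 ± 17.1 CPM, although 42.2% of its exons overlap another gene and its reads cannot be assigned with certainty. Genes that mark granule neurons from their last division on showed no call: Rbfox3, which encodes the NeuN antigen, was at 576 ± 76.9 CPM at P13 and 502 ± 38.5 CPM at P30+ and Reln, the signal protein of the internal granule layer, at 669 ± 102 CPM at P13 and 528 ± 36.9 CPM at P30+. Fat2, a granule cell cadherin, and Slc17a7, the vesicular glutamate transporter of parallel fibres, had 8-library log2 fold changes of 0.29 ± 0.23 and 0.41 ± 0.20. Cadps2, a release factor for neurotrophin vesicles, was the 1 member called lower, from 495 ± 89.5 to 319 ± 47.9 CPM with 8 libraries.

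The NMDA receptor genes changed subunit by subunit. These receptors pair the obligatory subunit encoded by Grin1 with Grin2 subunits, which set how long the channel stays open, and granule cells are known to exchange Grin2b for Grin2a and Grin2c as they mature. Grin2b (GRCm38 chr6:135713233-136173511) had 175, 166, 205, 172 and 223 CPM in P13 replicates 1 to 5 and 33.1, 26.9, 36.9, 35.2 and 41.7 CPM in P30+ replicates 1 to 5. No library crossed over, and the P13 libraries with midbrain genes were the highest of all. It fell by a log2 fold change of -2.40 ± 0.15 with 10 libraries and -2.23 ± 0.13 with 8 (adjusted p 4.35e-06 and 1.31e-06), which is 4.68-fold. Grin2c had 354, 442, 35.8, 297 and 181 CPM in P13 replicates 1 to 5 and 796, 739, 788, 621 and 645 CPM in P30+ replicates 1 to 5. All P30+ libraries stood above all P13 libraries, and the rise was 1.52 ± 0.47 with 10 libraries and 1.05 ± 0.14 with 8. Grin2a rose from 68.5 ± 14.9 to 97.7 ± 16.53 CPM and Grin1 from 411 ± 21.4 to 538 ± 24.6 CPM with 8 libraries, while neither was called with 10. Grin2d, a subunit of deep nuclei and brainstem neurons, fell with 8 libraries by -0.52 ± 0.13, much less than with 10 (-1.42 ± 0.41). Grin3a was called lower only with 10 libraries (-1.29 ± 0.38 against -0.50 ± 0.22). Per kilobase of exon, the Grin2b level at P13 was 6.89 CPM per kb against 72.3 for Grin2c and 3.82 for Grin2a. At P30+ the levels were 1.4 for Grin2b, 142 for Grin2c and 5.45 for Grin2a, so the order of Grin2b and Grin2a by this measure was reversed and Grin2c was the most abundant Grin2 gene at both ages.

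No core subunit gene of AMPA receptors was called in both fits. Gria2, the subunit that keeps these receptors closed to calcium, was at 670.1 ± 106 CPM at P13 and 609 ± 69.5 CPM at P30+ and not called, and Gria3 rose with 8 libraries from 106 ± 13.6 to 155 ± 14.3 CPM. Gria1 and Gria4, both present in Bergmann glia, had log2 fold changes of 0.43 ± 0.18 and 0.39 ± 0.14 without a call in the 8 libraries, though both were called with 10. Of the kainate receptor genes, Grik3 rose with 8 libraries (0.46 ± 0.10), Grik2 fell with 8 (-0.36 ± 0.11) and Grik5 fell in both fits (-0.69 ± 0.11 with 10 libraries and -0.52 ± 0.07 with 8). Auxiliary subunits, which escort AMPA receptors and set their gating, were called lower more often: 5 of 11 lower and 2 higher with 8 libraries (5 and 1 with 10). Cnih2, a cornichon that slows receptor closing, fell from 65.2 ± 1.94 to 29.8 ± 3.99 CPM, Shisa7 from 39.1 ± 6.54 to 22.7 ± 0.999 CPM and Cacng4 from 57.4 ± 7.67 to 27.6 ± 2.53 CPM. Cacng7 rose from 249.1 ± 15.6 to 316 ± 21.9 CPM. Cacng2, the stargazin gene that granule cells need for synaptic AMPA receptors, was at 177 ± 36.1 CPM at P13 and 155 ± 18.6 CPM at P30+ and not called. 

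Of 7 metabotropic glutamate receptor genes Grm5 was the 1 called lower. It had 76.7, 57.8, 241, 89.4 and 174 CPM in P13 replicates 1 to 5 and 8.54, 7.93, 8.57, 10.5 and 14.1 CPM in P30+ replicates 1 to 5. All P13 libraries stood above all P30+ libraries, and the 2 with midbrain genes were highest, so the fall was -3.67 ± 0.43 with 10 libraries and -2.84 ± 0.21 with 8. Grm4, the autoreceptor of parallel fibre terminals, rose from 588 ± 56.7 to 893 ± 88.7 CPM in both fits (1.08 ± 0.37 with 10 libraries and 0.67 ± 0.14 with 8). 

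GABA-A receptor genes gave different counts with and without the 2 P13 libraries. With 8 libraries 5 of 13 were called higher and 1 lower, whereas with 10 libraries 4 were called lower and 0 higher. Gabrb2, a beta subunit of adult receptors, rose with 8 libraries from 154 ± 19.8 to 237 ± 22.8 CPM, and Gabrd, the subunit of granule cell receptors outside synapses, from 126 ± 23.3 to 232 ± 26.8 CPM. Gabra3, an alpha subunit of young neurons, fell from 22.6 ± 4.28 to 12.3 ± 2.05 CPM in both fits. Gabra5 was called lower with 10 libraries only, its P13 values being 0.763, 1.96, 65.3, 6.68 and 24.5 CPM, so that call rested on replicates 3 and 5. Of the glycine receptor genes, Glra2, the fetal alpha subunit, had 38.4, 26.7, 49.9, 19.8 and 46.9 CPM in P13 replicates 1 to 5 and 2.03, 3.09, 1.91, 4.19 and 3.83 CPM in P30+ replicates 1 to 5 without overlap and fell with a log2 fold change of -3.56 ± 0.35 with 10 libraries and -3.17 ± 0.30 with 8, while Glrb, the beta subunit that anchors the adult receptor, rose with 8 libraries from 145 ± 17 to 188 ± 20.01 CPM. Slc12a5, the potassium chloride transporter that makes GABA inhibitory, rose with 8 libraries from 586 ± 23 to 798 ± 53.6 CPM, a log2 fold change of 0.51 ± 0.10. Its counterpart Slc12a2, which loads chloride into young neurons, had 0.31 ± 0.14 without a call.

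**Figure D2:**
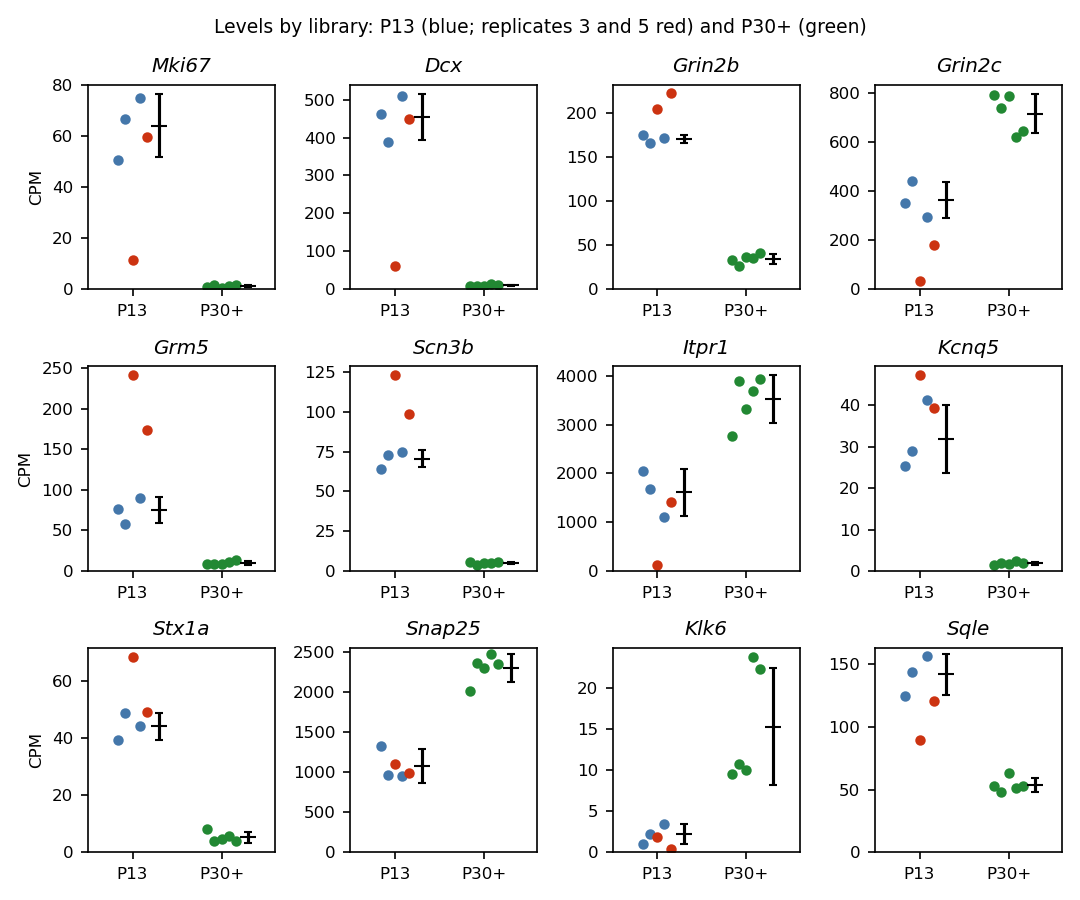
CPM of 12 genes in each P13 library (blue, with replicates 3 and 5 in red) and each P30+ library (green). The bars are mean and SD without the red points (n = 3 and n = 5), and in every panel all P30+ points lie on 1 side of all P13 points. The 12 genes were picked with their values known, so this lack of overlap reflects the choice.

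Voltage-gated sodium channel genes changed in both directions. With 8 libraries 6 of 11 were called higher and 2 lower (5 and 3 with 10), with a median of 0.84. The beta subunits, which speed gating and hold the channel in place, changed in opposite directions. Scn3b, the beta subunit of embryonic neurons, had 64.2, 72.8, 123, 74.8 and 98.8 CPM in P13 replicates 1 to 5 and 5.73, 3.89, 5.02, 4.84 and 5.32 CPM in P30+ replicates 1 to 5. All P30+ libraries were below all P13 libraries. It fell with a log2 fold change of -4.10 ± 0.22 with 10 libraries and -3.75 ± 0.11 with 8 (adjusted p 1.56e-08 with 8). Scn2b, another beta subunit, rose from 157 ± 35.4 to 386 ± 30.1 CPM in both fits (0.94 ± 0.26 with 10 libraries and 1.36 ± 0.17 with 8). Among pore subunits Scn1a rose with 8 libraries from 112 ± 10.7 to 241 ± 25 CPM (1.18 ± 0.13) and Scn2a rose in both fits from 292 ± 52.2 to 522 ± 53.5 CPM. Scn8a, the channel of adult nodes and initial segments, was at 469 ± 22.3 CPM at P13 and 483 ± 34.6 CPM at P30+ and Scn3a, the embryonic pore, at 25.9 ± 3.41 CPM at P13 and 21.9 ± 2.13 CPM at P30+, both without a call in the 8 libraries. Fgf13, an intracellular channel partner, fell from 59 ± 14.1 to 23 ± 3.26 CPM, while its relative Fgf14 rose from 48.1 ± 6.22 to 82.1 ± 12 CPM. 

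Potassium channel genes rose more often than they fell. Of 33 genes 13 were called higher and 4 lower with 8 libraries (12 and 5 with 10), and the median was 0.27. Kcnq5, a channel of the slow M current, had 25.5, 29, 47.2, 41.2 and 39.3 CPM in P13 replicates 1 to 5 and 1.51, 1.9, 1.69, 2.47 and 1.95 CPM in P30+ replicates 1 to 5 and fell 15.9-fold in the 8-library fit, a log2 fold change of -4.22 ± 0.23 with 10 libraries and -3.99 ± 0.20 with 8 with no overlap. Kcnq3 of the same family was not called at 49.5 ± 7.32 CPM at P13 and 52 ± 6.88 CPM at P30+. The fast channel Kcnc1, of a family that lets cerebellar neurons fire at high rates, rose from 759 ± 109 to 1241 ± 41.1 CPM. Kcna2, a channel of juxtaparanodes and basket cell terminals, rose from 81.4 ± 24.2 to 184 ± 18.5 CPM. Kcnip4, a calcium-binding partner of Kcnd channels, rose from 36.4 ± 5.38 to 98.8 ± 10.6 CPM, and Kcnt1, a sodium-activated channel, from 385 ± 107 to 884 ± 137 CPM. Kcnma1, the large-conductance calcium-activated channel, rose from 55.9 ± 11.7 to 119 ± 17.3 CPM, and Kcnj9, a G protein-gated channel, from 89.9 ± 18.3 to 220.3 ± 41.8 CPM. Kcnk9, the leak channel of granule cells, fell from 72.8 ± 8.43 to 34.5 ± 4.12 CPM in both fits (-1.02 ± 0.10 with 10 libraries and -1.003 ± 0.11 with 8). Hcn2, a channel of the pacemaker current, rose with 8 libraries from 52.6 ± 13.1 to 98.5 ± 25.9 CPM.

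Calcium channel genes were called lower more often than higher, 9 against 2 of 15 with 8 libraries and 6 against 1 with 10. Cacna1a, the P/Q-type pore of Purkinje and granule cells, was at 941 ± 125 CPM at P13 and 900.0 ± 57.5 CPM at P30+ and not called. Cacna1b, the N-type pore of young terminals, fell from 229 ± 13.3 to 127 ± 14.4 CPM in both fits. Cacna1g, a T-type pore, had 789.7, 940.0, 367, 793 and 591 CPM in P13 replicates 1 to 5 and 469.6, 452, 456, 459 and 464 CPM in P30+ replicates 1 to 5, where P13 replicate 3 lay below every P30+ library and the other P13 libraries above all of them. It fell with 8 libraries from 841 ± 85.9 to 460.0 ± 6.79 CPM. The auxiliary subunit Cacna2d3 fell from 158 ± 28.3 to 63.8 ± 3.35 CPM. Of the beta subunits, Cacnb4, the form known from adult cerebellum, rose from 254 ± 33.7 to 478 ± 61.7 CPM, while Cacnb3 fell from 109.9 ± 0.94 to 66.7 ± 2.52 CPM. 

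**Figure D3:**
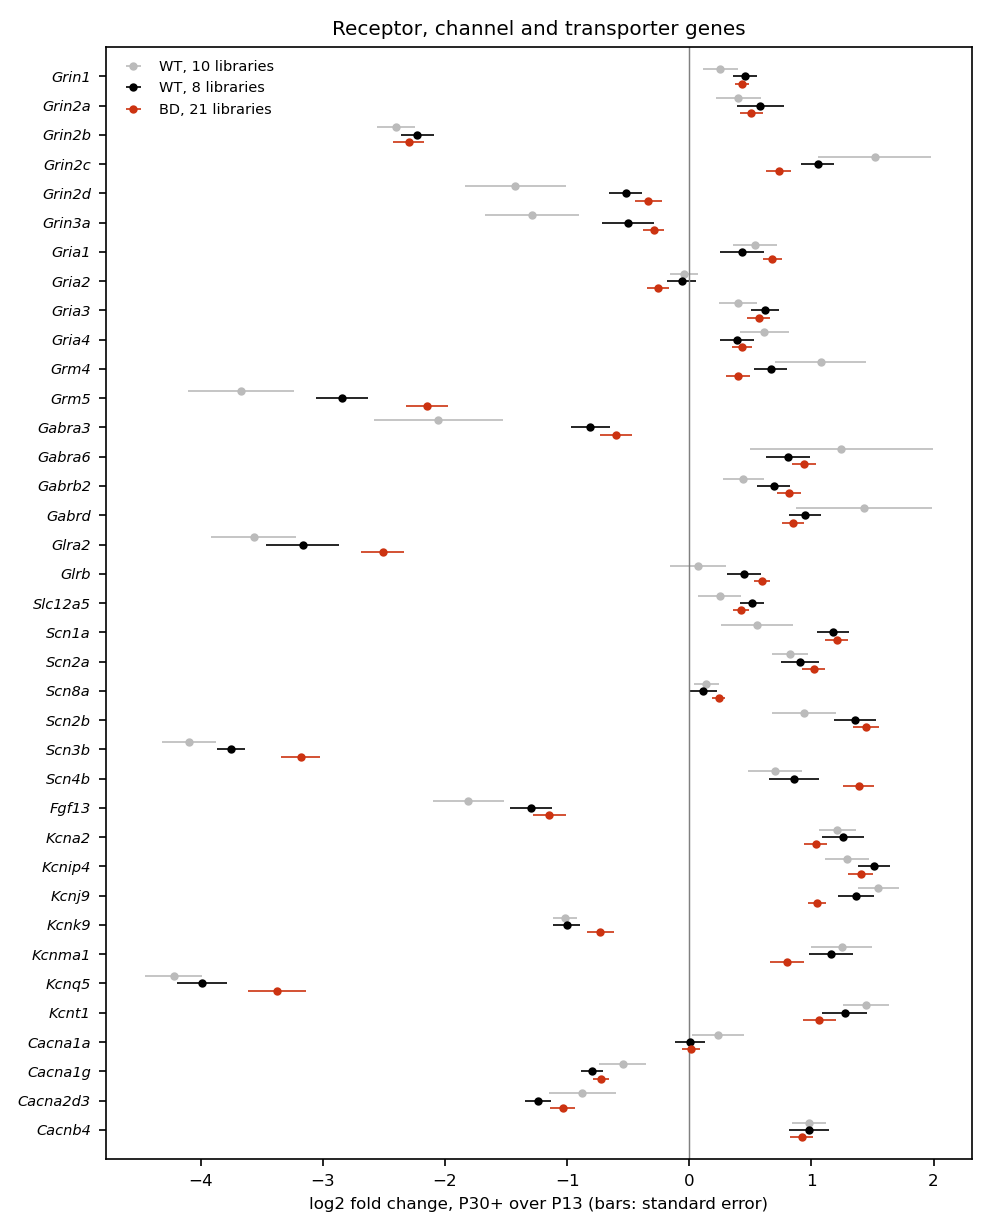
Log2 fold change (P30+ over P13) with its standard error for 37 receptor, channel and chloride transporter genes in 10 WT libraries (grey), 8 WT libraries (black) and 21 BD libraries (red). Grin2b, Grm5, Glra2, Scn3b and Kcnq5 lie left of -2 in all 3.

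Most Purkinje cell genes rose moderately or stayed without a call, and few were called lower. Purkinje cells stop dividing before birth and grow their dendrites over the first weeks. With 8 libraries 9 of 24 were called higher and 2 lower (median 0.38), and with 10 libraries 6 and 1. Itpr1, the calcium release channel of Purkinje cells, had 2055, 1681, 131, 1105 and 1422 CPM in P13 replicates 1 to 5 and 2769, 3898, 3325, 3700.0 and 3929 CPM in P30+ replicates 1 to 5, with every P30+ library above every P13 library. It rose with a log2 fold change of 1.52 ± 0.51 with 10 libraries and 1.20 ± 0.23 with 8. Rgs8, a brake on G protein signals, rose from 680.0 ± 208 to 1223 ± 252 CPM, and Plcb4, a phospholipase of glutamate signals, from 227 ± 39.6 to 392 ± 28.9 CPM. Aldoc, the zebrin antigen, rose from 923 ± 184 to 1380.5 ± 163 CPM. Calb1 and Car8, both abundant in Purkinje cells, were at 572 ± 172 CPM at P13 and 688 ± 117 CPM at P30+ and at 772 ± 333 CPM at P13 and 1164 ± 231 CPM at P30+ and were not called. Slc1a6, the glutamate transporter of Purkinje dendrites, fell with 8 libraries from 194 ± 39.9 to 126 ± 10.1 CPM. Foxp2 was called lower with 10 libraries only (-2.27 ± 0.76 against -0.10 ± 0.28). 

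Genes of inhibitory interneurons were called higher for 8 of 15 members and lower for 2 with 8 libraries, and for 4 and 0 with 10. Gad1, which makes GABA, rose from 320.3 ± 32.9 to 503 ± 17.7 CPM. Kit, the receptor of basket and stellate cells, had 174, 153, 94.3, 149 and 149.8 CPM in P13 replicates 1 to 5 and 237, 254, 251, 252 and 252 CPM in P30+ replicates 1 to 5. The P30+ values lay within a narrow band above all P13 values, and the rise was 0.84 ± 0.14 with 10 libraries and 0.72 ± 0.10 with 8. The precursor factor Pax2 fell with 8 libraries from 21 ± 2.78 to 13.6 ± 0.519 CPM. Slc6a5, the glycine transporter of Golgi cells, was at 70.5 ± 24.1 CPM at P13 and 70.9 ± 9.37 CPM at P30+ without a call, and so was Eomes of unipolar brush cells at 28.2 ± 4.74 CPM at P13 and 26.6 ± 17.9 CPM at P30+.

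Genes of the release machinery rose in part. With 8 libraries 13 of 29 were called higher and 3 lower (7 and 3 with 10). Snap25, a SNARE of the plasma membrane, had 1325, 968, 1103, 953 and 995 CPM in P13 replicates 1 to 5 and 2013, 2368, 2300.4, 2481 and 2350.0 CPM in P30+ replicates 1 to 5, with no overlap, and rose with a log2 fold change of 1.14 ± 0.16 with 10 libraries and 1.15 ± 0.17 with 8. Stx1a, its partner SNARE, had 39.4, 48.9, 68.5, 44.3 and 49 CPM in P13 replicates 1 to 5 and 8.22, 3.89, 4.53, 5.9 and 3.83 CPM in P30+ replicates 1 to 5, again with no overlap, and fell with a log2 fold change of -3.22 ± 0.23 with 10 libraries and -2.98 ± 0.19 with 8. The active zone scaffolds Bsn and Pclo rose from 462 ± 123 to 733 ± 70.8 CPM and from 369 ± 21.1 to 581 ± 59.9 CPM. Vamp1, the vesicle SNARE of fast adult terminals, rose with 8 libraries from 151 ± 52.5 to 257 ± 17.8 CPM (0.84 ± 0.18), but had the opposite sign and no call with 10 (-0.09 ± 0.43, adjusted p 0.893). Vamp2 was at 677 ± 100.2 CPM at P13 and 668 ± 51.4 CPM at P30+ without a call. Slc17a6, the vesicular glutamate transporter of young granule cells and of climbing fibres, fell from 90.1 ± 30.9 to 16.9 ± 9.91 CPM in the 8 libraries. Its P13 values with midbrain genes were far higher, so the fall was -3.79 ± 0.85 with 10 libraries and -2.33 ± 0.57 with 8. Slc17a6 was below 1 CPM in P30+ replicate 2 and 14.7 to 25.4 CPM in the other P30+ libraries.

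Genes that guide axons fell more often than they rose. Of 40 genes 18 were called lower and 4 higher with 8 libraries, and 17 and 1 with 10. Dcc, the netrin receptor that draws axons, fell from 19.5 ± 5.65 to 2.62 ± 0.435 CPM (-2.89 ± 0.21 with 10 libraries and -2.82 ± 0.20 with 8). Robo2 and Robo1, receptors of the repellent Slit proteins, fell from 109 ± 21.9 to 31.2 ± 5.0 CPM and from 42.4 ± 8.06 to 21.6 ± 3.49 CPM. Sema6a, which governs granule cell migration, fell from 238 ± 28.2 to 57.8 ± 6.87 CPM. Ntng1, a membrane-bound netrin, rose with 8 libraries from 10.1 ± 6.43 to 36 ± 6.07 CPM. Slit1 was called lower with 10 libraries only, with P13 values of 0.587, 2.92, 107, 6.89 and 45.9 CPM. Synaptic organisers had 5 of 23 higher and 6 lower with 8 libraries (2 and 10 with 10). Over all genes tested with 8 libraries, 15.8% were higher and 17.3% lower. Nrxn3, a presynaptic adhesion gene, rose from 249.6 ± 33.7 to 383 ± 38.1 CPM, and C1ql1, a C1q-like gene, fell from 10.8 ± 4.03 to 3.36 ± 0.968 CPM. Of 13 neurofilament and axonal cytoskeleton genes 3 were called lower and 0 higher with 8 libraries (5 and 0 with 10), against the same shares. The tubulin genes Tubb2a, Tubb5 and Tubb3 fell from 557 ± 31.1 to 155 ± 10.5 CPM, from 585 ± 99.5 to 184 ± 6.92 CPM and from 266 ± 45.5 to 137 ± 25.7 CPM, while Tubb4a, a tubulin of adult axons and oligodendrocytes, was at 772 ± 143 CPM at P13 and 889 ± 71.5 CPM at P30+ and not called, nor were Mapt and Map2. 

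Oligodendrocyte genes of different stages gave different counts. Oligodendrocyte progenitors divide, pass through a brief premyelinating stage and then make compact myelin, whose lipid is rich in cholesterol. Of 14 genes of progenitors and newly formed oligodendrocytes 8 were called lower and 0 higher, with 10 and with 8 libraries. Gpr17, the receptor of the premyelinating stage, had 110.2, 163, 466, 299 and 207 CPM in P13 replicates 1 to 5 and 40.6, 45.3, 47, 48.3 and 53.2 CPM in P30+ replicates 1 to 5, with no overlap. It fell with a log2 fold change of -2.39 ± 0.35 with 10 libraries and -1.95 ± 0.25 with 8 (adjusted p 2.04e-04 with 8). Pdgfra, the growth factor receptor of progenitors, fell from 56.8 ± 18.4 to 24.8 ± 2.93 CPM, Bmp4 from 7.02 ± 2.42 to 2.45 ± 0.719 CPM and Neu4, a sialidase of young oligodendrocytes, from 18.8 ± 7.43 to 7.2 ± 0.162 CPM. Of 30 genes of myelin and mature oligodendrocytes 12 were called higher with 8 libraries (13 with 10) and 0 lower. The structural genes Mbp, Mog, Mag and Cnp were not among them. Mbp, the basic protein that compacts the sheath, had 1808, 4245, 4254, 5550.4 and 1742 CPM in P13 replicates 1 to 5 and 2424, 2479, 2738, 3853 and 3415 CPM in P30+ replicates 1 to 5, so the P13 libraries spanned the P30+ range. Among the genes called higher were several of late oligodendrocytes. Klk6, a secreted protease, had 1.06, 2.26, 1.91, 3.44 and 0.402 CPM in P13 replicates 1 to 5 and 9.53, 10.8, 10.05, 23.8 and 22.4 CPM in P30+ replicates 1 to 5, without overlap, and rose with a log2 fold change of 3.13 ± 0.50 with 10 libraries and 2.84 ± 0.46 with 8 (adjusted p 9.53e-04 with 8). Hapln2, a link protein of nodes of Ranvier, rose from 14.8 ± 7.58 to 36.9 ± 9.6 CPM, Apod, a lipid carrier, from 59.1 ± 26.9 to 143 ± 31.4 CPM and Cryab, a small chaperone, from 27.6 ± 10.7 to 64.8 ± 12.6 CPM. Ndrg1, a gene whose loss causes demyelination in nerve, rose from 30.3 ± 9.89 to 85.1 ± 21.7 CPM, and Car2, a carbonic anhydrase, from 65.4 ± 14 to 151 ± 8.31 CPM. P30+ replicates 4 and 5 were the highest of their group for Klk6, and P13 replicates 1 and 5 the lowest of theirs for Mbp.

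Cholesterol synthesis genes were called lower in most members. The pathway runs from acetyl-CoA through mevalonate and squalene to cholesterol, and its genes share sterol-regulated control. Of 21 genes 14 were called lower and 0 higher in both fits, with a median log2 fold change of -0.60 with 10 libraries and -0.61 with 8. Early steps fell: Hmgcs1, which makes HMG-CoA, from 427 ± 97.5 to 208 ± 26.3 CPM, and Mvd, which makes isopentenyl diphosphate, from 54 ± 7.58 to 23.8 ± 3.53 CPM. Sqle, the squalene epoxidase and a further control point (GRCm38 chr15:59315077-59331192), had 125, 143, 89.1, 156 and 121 CPM in P13 replicates 1 to 5 and 52.5, 47.8, 63.1, 50.8 and 52.9 CPM in P30+ replicates 1 to 5, and the groups did not overlap. It fell with a log2 fold change of -1.20 ± 0.13 with 10 libraries and -1.33 ± 0.10 with 8, or 2.52-fold with 8 libraries (adjusted p 7.57e-06). Among the late steps some fell and others were not called. Cyp51, the lanosterol demethylase, fell from 123 ± 18.7 to 65.6 ± 4.19 CPM, and Dhcr7 from 66.4 ± 6.75 to 36 ± 2.78 CPM. Msmo1 and Sc5d, enzymes between Cyp51 and Dhcr7, were at 54.9 ± 14.3 CPM at P13 and 50.4 ± 2.42 CPM at P30+ and at 75.8 ± 7.89 CPM at P13 and 74.4 ± 5.92 CPM at P30+ and were not called. Insig1, a feedback gene of the same sterol response, was not called at a log2 fold change of -0.15 ± 0.15 with 8 libraries. 

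Of the 21 cholesterol genes 15 had an entry in the RefSeq promoter table, and 15 of these 15 held CCAAT letters on either strand of the window from 250 bases before to 50 after the start, against 41.1% of all genes and 42.8% of the genes tested. Of these 15 genes 9 were called lower in both fits. The same 150 bases before the start are shown for 3 of them, from an early and 2 late steps, with CCAAT and ATTGG in capitals. These 3 were chosen because this stretch holds a match.
Mvd (chr8:122443423-122443572, minus strand): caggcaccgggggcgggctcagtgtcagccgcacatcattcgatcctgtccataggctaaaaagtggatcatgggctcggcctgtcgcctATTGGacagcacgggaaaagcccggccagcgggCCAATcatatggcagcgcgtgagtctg
Cyp51 (chr5:4104698-4104847, minus strand): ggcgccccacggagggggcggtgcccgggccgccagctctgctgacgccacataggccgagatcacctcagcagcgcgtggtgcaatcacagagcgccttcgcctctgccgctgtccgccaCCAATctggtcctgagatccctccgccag
Dhcr7 (chr7:143830064-143830213, plus strand): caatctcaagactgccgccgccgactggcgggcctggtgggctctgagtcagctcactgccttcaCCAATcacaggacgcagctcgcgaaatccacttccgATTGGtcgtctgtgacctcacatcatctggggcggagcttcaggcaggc
Mvd and Dhcr7 held 2 matches each in this stretch and Cyp51 1. The last base of the nearest match lay 23 bases before the start in Mvd, 25 in Cyp51 and 45 in Dhcr7. The CHR core was held by 1 of the 15 genes (6.67%). As for the cell cycle genes, a match of letters is no measured site.

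Of 23 astrocyte and Bergmann glia genes 5 were called higher and 4 lower with 8 libraries (3 and 4 with 10), near the 15.8% and 17.3% of all genes tested. S100b, a calcium-binding protein of glia, had 131, 150.2, 107, 156 and 96.4 CPM in P13 replicates 1 to 5 and 335, 368, 330.5, 392 and 321 CPM in P30+ replicates 1 to 5, with no overlap, and rose by 1.495 ± 0.13 with 10 libraries and 1.34 ± 0.10 with 8. Gfap, the glial filament, had 191, 302, 204, 253 and 259 CPM in P13 replicates 1 to 5 and 109.8, 79.6, 112, 147 and 135 CPM in P30+ replicates 1 to 5 and fell with a log2 fold change of -1.003 ± 0.17 with 10 libraries and -1.008 ± 0.18 with 8. Aqp4, the water channel of astrocyte endfeet, fell from 617 ± 58.4 to 394 ± 77.3 CPM. Its call was lost with the listing run as a covariate (edgeR, adjusted p 0.171 with 10 libraries and 0.0905 with 8), and with 10 libraries also without P30+ replicate 2. The glutamate transporters Slc1a3 and Slc1a2 were at 1282 ± 178 CPM at P13 and 1472 ± 114 CPM at P30+ and at 850.0 ± 219 CPM at P13 and 890.1 ± 191 CPM at P30+ without a call, and Glul, which turns glutamate into glutamine, rose with 8 libraries from 318 ± 32.1 to 524 ± 98.1 CPM. Slc6a11, a GABA transporter, was called lower with 10 libraries only. Genes of radial and immature glia were called lower for 6 of 10 members and higher for 0 in each fit, and 5 of these were lower in both. Fabp7, the brain lipid-binding protein whose promoter drives Blbp-Cre in the other groups of the study, had 239, 341, 113, 241 and 221 CPM in P13 replicates 1 to 5 and 71.4, 51.8, 62.4, 48.3 and 65.2 CPM in P30+ replicates 1 to 5 and fell with a log2 fold change of -1.90 ± 0.22 with 10 libraries and -2.12 ± 0.14 with 8. Tnc, a matrix protein around migrating cells, fell from 169 ± 11 to 57.6 ± 9.69 CPM, and Ednrb, an endothelin receptor, from 214 ± 47.7 to 115 ± 20.8 CPM. Vim and Sox2 were not called, at 126 ± 9.65 CPM at P13 and 111 ± 13.3 CPM at P30+ and 22.6 ± 2.64 CPM at P13 and 22.4 ± 3.57 CPM at P30+.

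Microglia genes were mostly without a call. With 8 libraries 2 of 15 were called lower (4 with 10), near the 17.3% of all genes tested. These were Fcrls from 6.75 ± 2.82 to 3.11 ± 0.759 CPM and P2ry12 from 11.7 ± 3.88 to 6.78 ± 1.19 CPM, and 0 genes were higher. Both lost their call with the listing run as a covariate (edgeR with 8 libraries, adjusted p 0.0818 and 0.114). C1qa, the complement protein of microglia, was at 9.17 ± 1.27 CPM at P13 and 9.25 ± 2.87 CPM at P30+ and Csf1r, their survival receptor, at 29.6 ± 10.5 CPM at P13 and 26.1 ± 5.8 CPM at P30+. The summed level of the 15 genes was 129.7 to 210.5 CPM in the 3 P13 libraries and 108.1 to 165.8 CPM at P30+, but reached 375.7 CPM among the 2 others. Of the vessel genes 5 of 17 were called higher and 4 lower with 8 libraries (4 and 6 with 10), against 15.8% and 17.3% of all genes. Kdr, the growth receptor of sprouting endothelium, fell from 51.1 ± 7.04 to 25.2 ± 1.8 CPM, and Abcb1a, the efflux pump of the blood-brain barrier, rose from 19.4 ± 1.46 to 36 ± 2.83 CPM, while the general endothelial gene Pecam1 was at 21.7 ± 3.74 CPM at P13 and 20.3 ± 3.13 CPM at P30+ without a call. Collagens and fibroblast genes fell for 7 of 12 members and rose for 1 with 8 libraries (8 and 0 with 10). Col3a1, a collagen of meninges and vessel walls, had 52.7, 46.7, 63.2, 92.4 and 106 CPM in P13 replicates 1 to 5 and 17.7, 9.6, 16.9, 12.4 and 17.6 CPM in P30+ replicates 1 to 5, with no overlap, and fell with a log2 fold change of -2.25 ± 0.27 with 10 libraries and -2.04 ± 0.25 with 8. The basement membrane genes Col4a1 and Col4a2 fell from 166 ± 53.8 to 56.8 ± 7.61 CPM and from 111 ± 37.3 to 43 ± 8.32 CPM. The matrix around neurons changed as well. Ncan, the lectican of the developing brain, fell from 154 ± 52.6 to 33.4 ± 6.12 CPM, and Vcan from 105 ± 18.5 to 50.1 ± 5.55 CPM, while Bcan was at 211 ± 40.8 CPM at P13 and 232 ± 21.8 CPM at P30+ without a call. Of the link proteins, Hapln1 fell from 19.1 ± 9.92 to 6.83 ± 1.62 CPM and Hapln4, found in the nets of cerebellar nuclei, rose from 59.3 ± 6.23 to 165 ± 18.9 CPM. 

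Of 9 genes of the insulin-like growth factor (IGF) system 3 were called lower and 1 higher, with 10 and with 8 libraries. Over all genes tested with 8 libraries, 17.3% were lower and 15.8% higher. Igf1 fell from 14.9 ± 3.82 to 7.91 ± 1.8 CPM and its binding protein gene Igfbp4 from 18.2 ± 5.87 to 7.68 ± 1.58 CPM, while Igf2r, the receptor that clears IGF2, rose from 96.4 ± 10.6 to 127 ± 7.2 CPM. Of 13 imprinted growth genes 5 were called lower and 2 higher with 8 libraries (5 and 1 with 10). Nnat, a small membrane protein of developing neurons, fell from 116 ± 33.9 to 33.6 ± 7.5 CPM, H19 from 8.23 ± 4.18 to 3.24 ± 1.17 CPM, and Plagl1, a zinc finger factor of this network, from 40.9 ± 9.71 to 22.5 ± 3.54 CPM. Peg3 went the other way, with 446, 488, 1107, 487 and 753 CPM in P13 replicates 1 to 5 and 1130.2, 1142, 936, 863 and 858 CPM in P30+ replicates 1 to 5. It rose with 8 libraries (1.13 ± 0.13) and not with 10 (0.60 ± 0.27, adjusted p 0.106). P13 replicate 3 was among the highest libraries. Thyroid hormone, which paces cerebellar maturation, is read through 10 genes of its handling and response, of which 1 was called higher and 4 lower with 8 libraries (1 and 5 with 10). Hr, a direct target and corepressor, rose from 158 ± 15 to 205 ± 17.5 CPM, Dio2, which activates the hormone, fell from 57.3 ± 7.01 to 37.4 ± 6.6 CPM, and Klf9, another direct target, was at 182 ± 16.8 CPM at P13 and 158 ± 6.87 CPM at P30+ without a call. The calls of Igf1, H19 and Dio2 were lost with the listing run as a covariate (edgeR with 8 libraries, adjusted p 0.0860, 0.0610 and 0.0546).

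Immediate early genes were higher at P30+. These genes are switched on within minutes by activity, and also by handling and dissection. With 8 libraries 11 of 13 were called higher and 0 lower, with a median of 1.34, and with 10 libraries 8 and 0 (median 1.013). Fos had 7.22, 19, 18.8, 19 and 15.7 CPM in P13 replicates 1 to 5 and 109.9, 81.8, 37.6, 36 and 20.8 CPM in P30+ replicates 1 to 5. All P30+ libraries were above all P13 libraries, and P30+ replicates 1 and 2 were the highest. The log2 fold change was 1.86 ± 0.42 with 10 libraries and 1.98 ± 0.51 with 8 (adjusted p 0.00731 and 0.0128). Dusp1, a phosphatase of the same early wave, had 22, 31.1, 12.2, 28.5 and 24 CPM in P13 replicates 1 to 5 and 129, 105, 71.6, 67.7 and 44.5 CPM in P30+ replicates 1 to 5 with the same 2 libraries at the top. Npas4, which only neuronal activity induces, rose from 2.94 ± 1.35 to 15.4 ± 8.55 CPM with P30+ replicates 1 and 2 highest again. These are the 2 P30+ libraries without a male profile by Y-linked genes, which 3 of 5 P30+ and 4 of 5 P13 libraries have. With sex as a covariate in the 10-library fit the log2 fold change was 1.43 ± 0.34 for Fos (adjusted p 0.0113, edgeR) and 1.67 ± 0.22 for Dusp1 (adjusted p 5.30e-04, edgeR). Npas4 was at 1.29 ± 0.58 and lost its call (adjusted p 0.114, edgeR). With the listing run as a covariate Fos lost its call as well (edgeR, adjusted p 0.158 with 10 libraries and 0.0656 with 8). Arc had 3.17, 5.38, 33.3, 10.1 and 13.5 CPM in P13 replicates 1 to 5 and 26.7, 25.3, 28.6, 27 and 24.4 CPM in P30+ replicates 1 to 5. Here the P30+ libraries lay close together, and P13 replicate 3 was the highest of all 10. Bdnf, the neurotrophin, rose with 8 libraries from 3.25 ± 1.51 to 13 ± 3.41 CPM (2.06 ± 0.33) and was not called with 10 (0.65 ± 0.57). The labels give no time of day or time to freezing, and their part in these differences was not tested. Of the neurotrophin receptors, Ntrk3 rose from 75.7 ± 18.9 to 116 ± 24.7 CPM, Ngfr fell from 20.3 ± 4.21 to 5.72 ± 1.58 CPM and Ntrk2 was at 478 ± 73.5 CPM at P13 and 419 ± 47.1 CPM at P30+ without a call. Of 16 clock genes 5 were called higher and 0 lower with 8 libraries (4 and 0 with 10). Bhlhe40, which activity also induces, rose from 25 ± 4.25 to 66.6 ± 6.71 CPM and Nr1d1 from 70.8 ± 9.68 to 118 ± 17.7 CPM. Hlf rose with 8 libraries from 45.7 ± 4.77 to 92.2 ± 10.1 CPM. Dbp, Per2 and Arntl were not called.

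Genes of immune detection were called higher or not at all. B2m and H2-D1, parts of the class I antigen complex, rose from 22.4 ± 1.82 to 37.7 ± 6.57 CPM and from 88.8 ± 21.9 to 134 ± 6.7 CPM. Of 13 interferon response genes 6 were called higher with 8 libraries (3 with 10) and 0 lower, most of them at low levels: Ifit3 had 0.742 to 4.37 CPM at P13 and 2.22 to 3.18 CPM at P30+, with an 8-library log2 fold change of 1.45 ± 0.28. Energy metabolism genes rose for 9 of 18 members and fell for 2 with 8 libraries (6 and 1 with 10). Aldoa and Pfkm of glycolysis rose from 580.0 ± 70.2 to 926 ± 33.5 CPM and from 355 ± 17.6 to 528 ± 19.7 CPM, and Ldha, which makes lactate, fell from 148 ± 8.11 to 111 ± 8.28 CPM. Regulators of chromatin and DNA methylation were called lower for 9 of 19 genes and higher for 2 with 8 libraries (6 and 0 with 10). Uhrf1, which copies methylation at replication, fell from 17.1 ± 2.19 to 0.978 ± 0.257 CPM, Ezh2, the Polycomb methyltransferase, from 41.6 ± 12.6 to 17.1 ± 2.22 CPM and Lmnb1, a lamin of young nuclei, from 73.6 ± 8.7 to 14.9 ± 2.02 CPM. Dnmt3a, the methyltransferase of neurons, fell from 408 ± 63 to 297 ± 19.7 CPM, a call lost with the listing run as a covariate (edgeR with 8 libraries, adjusted p 0.173). Of 15 RNA-binding protein genes 4 were called lower and 1 higher with 8 libraries (6 and 0 with 10), against 17.3% and 15.8% of all genes with 8. Elavl2 fell from 47.7 ± 18.7 to 22 ± 5.01 CPM and Rbfox1 rose with 8 libraries from 172 ± 27.4 to 246 ± 30.6 CPM.

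**Figure D4:**
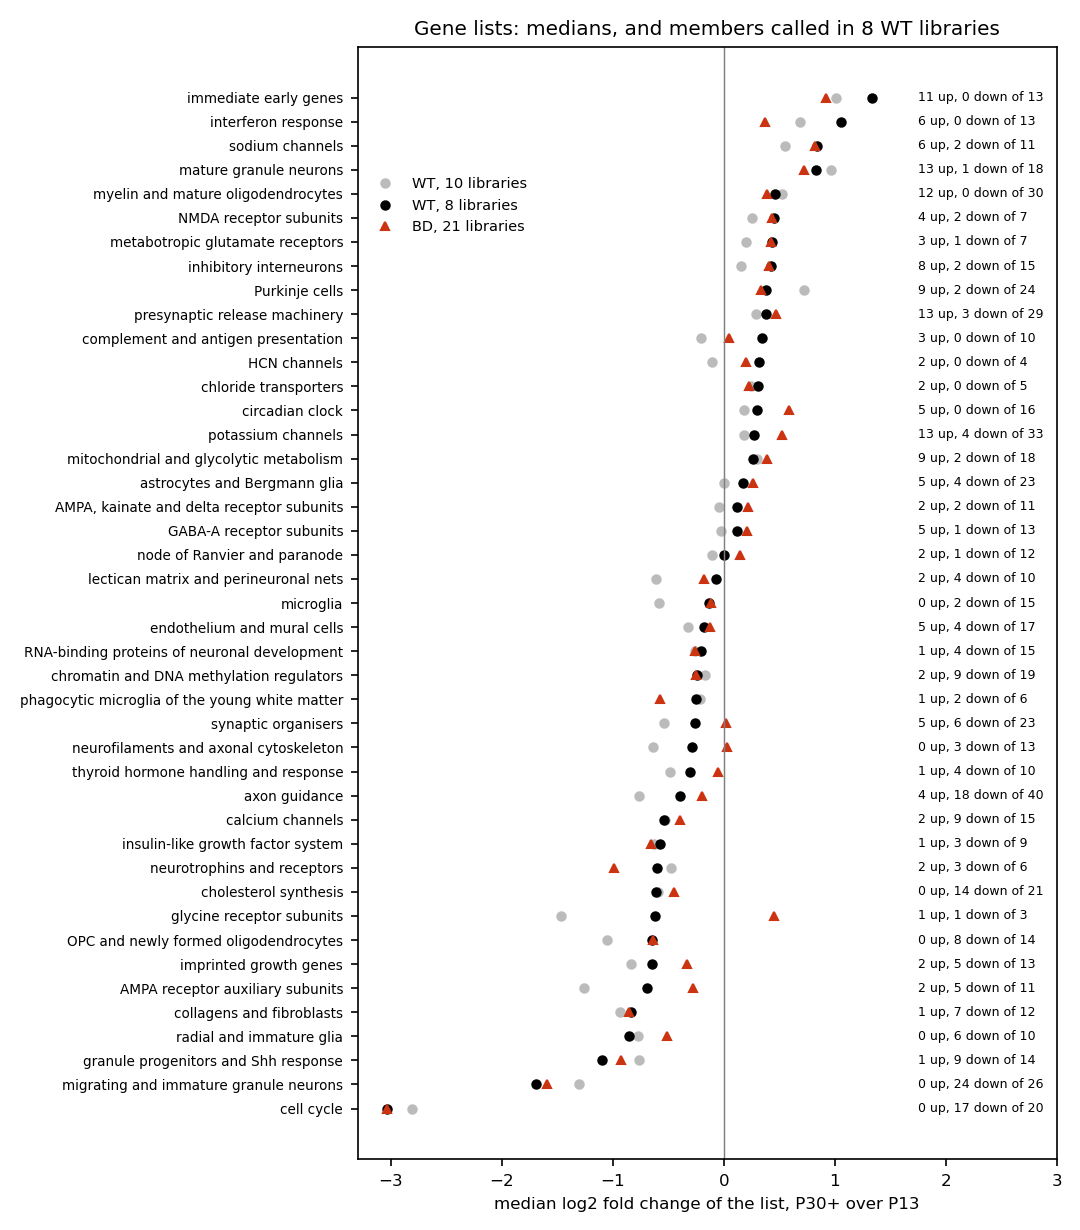
Median log2 fold change (P30+ over P13) of 43 gene lists in 10 WT libraries (grey), 8 WT libraries (black) and 21 BD libraries (red triangles). Text at the right gives how many tested members were called higher and lower in the 8 WT libraries, from 11 of 13 immediate early genes higher to 17 of 20 cell cycle genes lower.

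The largest rises were in genes at low levels before P30+. Comp, a pentameric matrix protein known from cartilage (GRCm38 chr8:70373558-70382066), had 0.235, 0.604, 0.109, 0.318 and 0 CPM in P13 replicates 1 to 5 and 13.5, 9.04, 11.6, 10.4 and 7.2 CPM in P30+ replicates 1 to 5. No P13 library reached 1 CPM, and the rise was 5.36 ± 0.49 with 10 libraries and 4.77 ± 0.30 with 8 (adjusted p 2.10e-06 with 8). Pappa, a protease that frees IGF from its binding proteins (GRCm38 chr4:65124174-65357509), had 0.411, 0.805, 7.44, 2.38 and 3.97 CPM in P13 replicates 1 to 5 and 32.2, 28.5, 30.4, 25.3 and 45.7 CPM in P30+ replicates 1 to 5, where P13 replicates 3 and 5 were the highest of their group. It rose with a log2 fold change of 3.44 ± 0.61 with 10 libraries and 4.81 ± 0.42 with 8. Etnppl, an astrocyte enzyme that breaks down phosphoethanolamine, rose from 2.56 ± 1.79 to 28.5 ± 10.2 CPM. Dao, the D-amino acid oxidase known from cerebellar glia, rose from 9.93 ± 0.362 to 61.3 ± 6.01 CPM. Exph5, an effector of Rab27 in vesicle traffic, rose from 24.2 ± 1.05 to 192 ± 33.3 CPM, and Vwa7, a von Willebrand factor domain gene, rose from 7.53 ± 1.91 to 72.8 ± 14.6 CPM. Plk5, a polo-like kinase that neurons express, rose from 9.49 ± 4.71 to 106 ± 34.1 CPM. Serpinb1a, Dmp1, Myo15, Cpsf4l and Aqp6 were also among the 12 largest rises with 10 libraries, with 8-library log2 fold changes of 4.21 ± 0.36, 4.08 ± 0.25, 3.11 ± 0.67, 3.20 ± 0.35 and 2.98 ± 0.21.

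Among the largest falls a set was much larger with the 2 libraries with midbrain genes than without them. Lhx9, a factor of midbrain and thalamic neurons, had 1.06, 1.21, 145, 1.22 and 62.8 CPM in P13 replicates 1 to 5 and 0.364, 0.476, 0.601, 0.454 and 0.584 CPM in P30+ replicates 1 to 5, and its log2 fold change shrank from -6.43 ± 1.61 with 10 libraries to -1.15 ± 0.30 with 8. Cbln2 went from -6.32 ± 1.52 to -2.02 ± 0.62, Dgkk from -6.89 ± 1.53 to -3.37 ± 0.74 and Cpne5 from -6.86 ± 1.41 to -3.53 ± 0.64. Asic4 was called with 10 libraries (-5.57 ± 1.47) and not with 8 (-0.75 ± 0.43). Falls that did not depend on them were those of division and of new neurons: the mitotic genes Pimreg, Kif18b, Psrc1 and Melk had 8-library values of -6.82 ± 0.49, -6.43 ± 0.46, -6.20 ± 0.60 and -5.93 ± 0.52.

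The WT cerebella of E16.5 and P5 place these changes on a longer course. For each gene the log2 change from P13 to P30+ minus that from P5 to P13 was tested. It was called for 2107 of 19591 genes (10.8%) without P13 replicates 3 and 5, 564 with a positive (2.88%) and 1543 with a negative difference (7.88%), and for 2168 of 18988 (11.4%) with them. P13 libraries enter both steps with opposite signs, and P5 replicate 5 held 111.7 CPM of the 4 midbrain factors, so single values lean on few libraries. Leaving out 1 P5, P13 or P30+ library at a time from the full set gave 1419 genes (without P13 replicate 5) to 2596 (without P13 replicate 2). Means below are E16.5 and P5 of 5 libraries and P13 of 3. No library was left out of these means for midbrain genes at E16.5 and P5. There the sums of the 4 factors ran from 27.3 to 255 CPM and from 4.41 to 111.7 CPM.

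Genes of neuron production had their highest means at E16.5 or P5 and their lowest at P30+. Top2a, the topoisomerase of dividing cells, was at 96 ± 25.7 CPM at E16.5, 331 ± 96.2 CPM at P5, then went from 59.8 ± 10.03 to 1.43 ± 0.41 CPM. Nhlh1, a factor of new granule neurons, was at 59.1 ± 23.9 CPM at P5 and went from 44.9 ± 5.83 to 0.164 ± 0.0943 CPM, so the steeper step lay after P13 (step difference -7.74 ± 0.56, adjusted p 7.36e-08). Dcx, the microtubule protein of migrating neurons, was at 1338 ± 313 CPM at E16.5 and 839 ± 241 CPM at P5 and then went from 454 ± 60.8 to 10.4 ± 1.89 CPM (-4.65 ± 0.43, adjusted p 1.15e-06). Grin2b was at 226 ± 59.98 and 228 ± 65.7 CPM at E16.5 and P5 and went from 171 ± 4.31 to 34.8 ± 5.42 CPM, and Kcnq5 was at 38.6 ± 4.21 CPM at P5 and went from 31.9 ± 8.27 to 1.9 ± 0.362 CPM. Both step differences were called, at -1.96 ± 0.44 (adjusted p 0.00641) and -3.87 ± 0.34 (adjusted p 6.30e-07). Sqle of cholesterol synthesis held 138 ± 6.01 CPM at P5 and went from 141 ± 16 to 53.4 ± 5.75 CPM (-1.52 ± 0.19, adjusted p 3.34e-05).

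Other genes had a larger step before P13 than after it. Gabra6 was at 3.43 ± 2.78 CPM at P5 and went from 454 ± 107 to 757 ± 106 CPM, a step difference of -6.39 ± 0.66 (adjusted p 3.31e-06). Mbp was at 598 ± 515 CPM at P5 and 3868 ± 1899.5 CPM at P13 and 2982 ± 627 CPM at P30+ (-3.16 ± 0.74, adjusted p 0.00875). Cacna1g, the T-type calcium channel, was highest at P13, with 267 ± 65.9 CPM at P5 and 841 ± 85.9 CPM at P13 and 460.0 ± 6.79 CPM at P30+ (-2.62 ± 0.26, adjusted p 2.06e-06). Snap25 of the release machinery rose over both steps, from 286 ± 57.4 CPM at P5 and from 1082 ± 210.2 to 2302 ± 175 CPM, with a step difference that was not called (-0.94 ± 0.32, adjusted p 0.0667). A further group had a lower mean at P13 than at P5 once P13 replicates 3 and 5 were left out. Libraries with midbrain genes were left out at P13 only, and they were the highest P13 libraries for Pappa and Npy. What part this has in the lower P13 means was not tested. Pappa was at 8.9 ± 3.17 CPM at E16.5, 8.3 ± 3.25 CPM at P5 and went from 1.2 ± 1.04 to 32.4 ± 7.83 CPM (7.42 ± 0.94, adjusted p 3.06e-05). Npy, the neuropeptide, was at 15.1 ± 8.68 and 5.18 ± 4.63 CPM and went from 0.927 ± 0.324 to 8.48 ± 1.97 CPM (5.58 ± 1.34, adjusted p 0.0104). With 10 libraries Npy was not called between P13 and P30+ (0.041 ± 0.87). Its P13 values were 1.12, 0.554, 24.5, 1.11 and 13.5 CPM, with replicate 3 far above the rest. Bdnf, at 5.54 ± 2.69 CPM at P5, had a step difference of 2.66 ± 0.76 (adjusted p 0.0293). Comp was below 1 CPM on average at all 3 earlier ages and its step difference was not called (2.80 ± 1.02, adjusted p 0.0921).

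**Figure D5:**
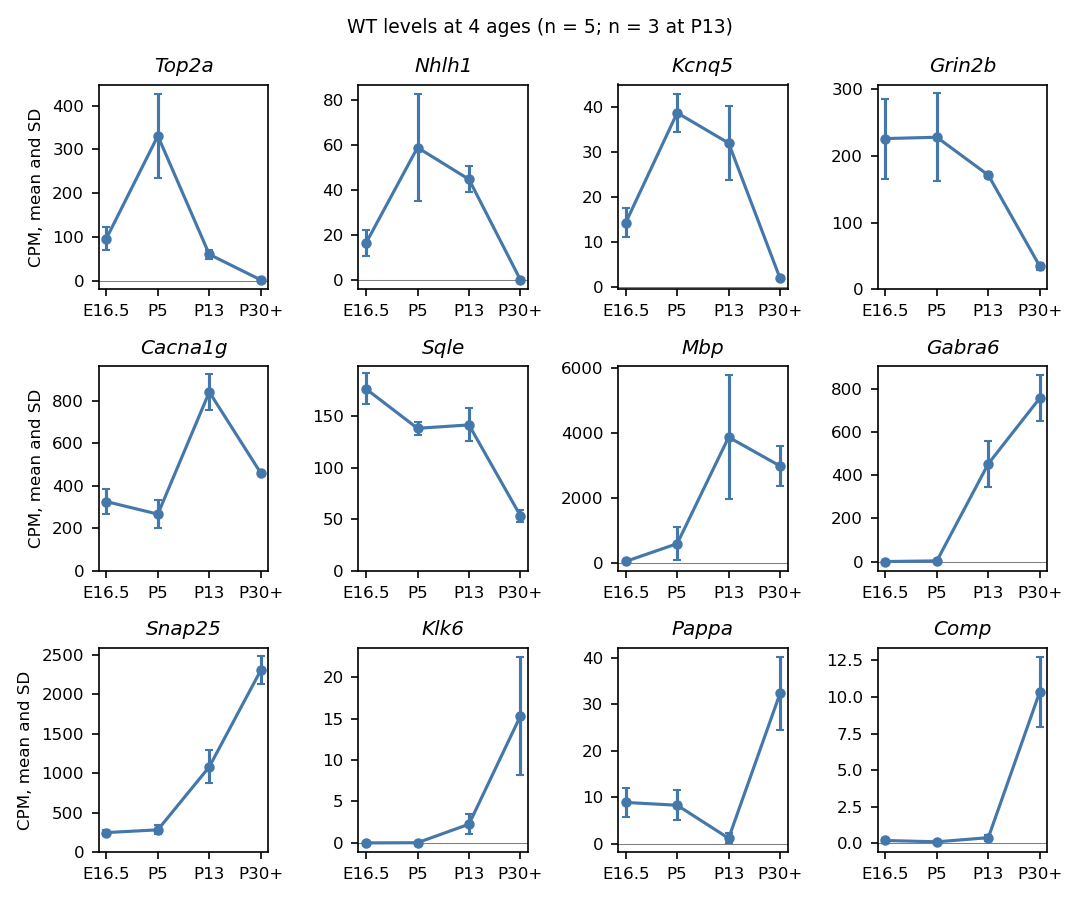
Level of 12 genes in WT cerebella at E16.5, P5, P13 and P30+, as mean CPM with SD bars (n = 5, and n = 3 at P13 without replicates 3 and 5), each gene on its own linear axis. Top2a and Nhlh1 are near 0 at P30+, Gabra6 and Mbp are low at P5, and Pappa has its lowest mean at P13.

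The same age comparison was made in the BD cerebella, which share no library with WT. Of the 29 BD libraries 8 held more than 5 CPM of the 4 midbrain factors, up to 41.0 CPM, and were left out, which left 10 at P13 and 11 at P30+. With the 3 BD genotypes together and genotype as a term, 9556 of 18705 genes were called (51.1%), 4465 higher (23.9%) and 5091 lower (27.2%), against 9560 (50.7%) with all 29 libraries. By genotype, with all libraries, 5521 of 17518 genes were called in BD-FLPlus (31.5%), 5032 of 17502 in BD-FLY (28.8%) and 2427 of 17286 in BD-FL-FL (14%). In BD-FL-FL 3705 of 17282 (21.4%) were called once its libraries with midbrain genes were left out. Of the 5902 genes called in 8 WT libraries and tested in both, 5178 were called in the same direction in the BD groups (87.7% of these, and 55.8% of the 9272 called in BD), and 9 in the opposite one. With 10 WT libraries the shares were 79.1% and 48.8%, with 17 genes opposite.

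The gene groups described above were read in the BD groups as well. Of the cell cycle genes 17 were called lower in BD as in 8 WT libraries, with medians of -3.03 and -3.03. Of the 24 immature granule genes called lower in WT 23 were also called lower in BD, and of the 14 cholesterol genes 13. Mature granule genes were called higher in BD for 15 of 18, including the 13 called in WT, and immediate early genes for 10 of 13. Each genotype alone, with all its libraries, gave fewer calls. Mature granule genes were called higher for 11 in BD-FLPlus, 10 in BD-FLY and 6 in BD-FL-FL. Immediate early genes were called higher for 9, 2 and 2 of 13, with medians of 0.74, 0.69 and 0.36. Sqle went from 143 ± 16.8 to 52.8 ± 15.5 CPM in BD, Klk6 from 3.1 ± 1.751 to 16.7 ± 5.9 CPM, and Mbp was not called there either, at 4141 ± 1125 and 3408 ± 1264 CPM. Fos rose in BD with a log2 fold change of 1.41 ± 0.39 and Dusp1 by 0.92 ± 0.22, with interaction values (BD minus WT) of -0.54 ± 0.76 (adjusted p 0.909) and -0.75 ± 0.41 (adjusted p 0.764) that were not called. Neurod1, a granule lineage factor, fell in 8 WT libraries (-0.64 ± 0.16) and was not called in BD (-0.21 ± 0.12), and the difference itself was not called (0.43 ± 0.23, adjusted p 0.756).

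A test of the difference in age effect between BD and WT called 26 of 19235 genes (0.135%) with all libraries, and 4 of 19109 (0.0209%) without libraries with midbrain genes, 3 with a higher (0.0157%) and 1 with a lower value in BD (0.00523%). At an unadjusted p under 0.05 there were 2756 and 1316 genes, and DESeq2 called 195 with all libraries. With 1 WT library left out at a time the count ran from 6 (without P13 replicate 3, and without P30+ replicate 2) to 373 (without P13 replicate 2), with 63 without P13 replicate 4, 14 without P30+ replicate 1 and 16 without P30+ replicate 4. The 4 genes were named after their values were seen. Fam83a had log2 fold changes of -5.46 ± 0.68 in 8 WT and -1.58 ± 0.34 in BD libraries, a difference of 3.89 ± 0.68 (adjusted p 0.0328). Fgfbp3, a carrier of fibroblast growth factors, rose in WT (1.17 ± 0.15) and was not called in BD (-0.013 ± 0.11), a difference of -1.20 ± 0.20 (adjusted p 0.0328). Gm10086 had a difference of 1.72 ± 0.31 (adjusted p 0.0395). Pcdhgb8, a protocadherin gene that shares 45.9% of its exon bases with its neighbours, so that its reads are uncertain, had 1.61 ± 0.28 (adjusted p 0.0328). Pcp4, a calmodulin-binding protein of Purkinje cells, rose in WT (0.52 ± 0.10) and fell in BD (-0.57 ± 0.11) without a called difference (-1.09 ± 0.21, adjusted p 0.0687), and 23.7% of its exon bases overlap other genes. BD and WT differ in alleles, and the WT strain is not labelled, so alleles and strain cannot be told apart.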

How the data were processed

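RNA from whole cerebella was sequenced. Per the labels' protocols, it was taken from flash-frozen tissue with Trizol and a column kit and made into Illumina libraries. The deposited values are raw read counts per gene. Reads were aligned with HISAT2 and counted with featureCounts on GRCm38, per the submitters' processing notes. For tool versions, annotation release and strand setting the sources used here give nothing, so overlapping genes on opposite strands cannot be told apart.

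The members are given by the labels. The gene lists (51, with 687 distinct genes), alternatives and further comparisons were chosen with earlier results of these data known. P30+ was tested against P13 with edgeR's quasi-likelihood test (edgeR 4.0.16, limma 3.58.1, R 4.3.3; TMM scaling, filterByExpr with a minimum count of 10 and a total of 15, Benjamini-Hochberg adjustment over all genes tested, called at an adjusted p under 0.05). DESeq2 1.42.0 was an alternative. Standard errors are the log2 fold change divided by the root of the F statistic. Genes are named by rule: among called genes at a log2 CPM of at least 1, predicted genes left out, the 12 that rose most and the 12 that fell most; from each list up to 6 called members per direction with the smallest adjusted p and up to 4 uncalled members of the highest level, and every member of the shorter receptor, channel and transporter lists. Some of these are not reported here, and other list members were picked after their values were seen. Leaving out P13 replicates 3 and 5 was chosen after seeing the data, by a sum of Pax7, Pou4f1, Tfap2d and Pou4f2 over 5 CPM. Exon lengths and overlaps are from GENCODE M21, promoters from RefSeq (GRCm38.p6). Simulated data had the WT means and sizes, with few genes changed. The 10-library test recovered 60.9% of 87 changes of 1 and 92% of 112 changes of 2 (log2 scale, 17220 genes). The 8-library test recovered 55.1% of 89 and 90.6% of 106 (17605 genes). With totals of 12606224 to 19898201 counts, 1 count was worth less than 0.1 CPM. Other alternatives were the scaling, the count filter, a replicate block, a listing run (the first or second alphabetical pass of titles in deposit order, which is no stated batch), sex from Y-linked genes, other libraries in the fit, a fold threshold and each library left out.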

Additional observations from a re-analysis of the deposited data

Results flagged for a closer look

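Among the 39 genes printed library by library, 78 groups of 5 libraries were examined for 1 library far from the other 4 (Dixon's test at the 95% level, by which chance marks about 1 group in 20), and 6 stood out. P13 replicate 3, the library that goes against its tissue label, was far below the other P13 libraries for Dcx (61.3 CPM) and Nhlh1 (0.383 CPM). P13 replicate 1 was the lowest for Fos (7.22 CPM) and P30+ replicate 1 for Kit (237 CPM). P30+ replicate 3 was the highest for Nhlh1 (0.328 CPM) and P30+ replicate 4 for Atoh1 (0.0504 CPM), both at levels of a few counts.

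The age effect differed between BD groups and WT, by a test of the difference itself without libraries with midbrain genes, for Fam83a (3.89 on the log2 scale, BD minus WT), Gm10086 (1.72), Pcdhgb8 (1.61) and Fgfbp3 (-1.20).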

How the results depend on the processing

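The 5623 genes called with 10 WT libraries (2486 higher, 3137 lower) became 3301 (1475 and 1826) with the listing run as a covariate, in which 1 of 5 P13 and 4 of 5 P30+ libraries fall in the first run, and 5759 (2844 and 2915) with that covariate in the 8 libraries. They became 1373 (442 and 931) when tested against a fold of 1.5. With 1 library left out they ran from 4206 (without P13 replicate 5) to 6643 (without P13 replicate 3), the higher from 1799 to 3113 and the lower from 2407 to 3530. DESeq2, other scalings, no count filter, sex and other libraries in the fit kept these counts within 1.5 times. The replicate numbers did not pair the libraries (correlations of same-numbered deviations of -0.22 to 0.20, with replicate 5 alone closest to its own number). With the replicate block 4610 genes were called in WT (2170 higher, 2440 lower), 3792 in BD-FLPlus, 4717 in BD-FLY and 1174 in BD-FL-FL. BD-FL-FL ran from 1517 (without P30+ replicate 1) to 2735 with 1 library left out, and was 1594 without P13 replicate 4, 1611 without P30+ replicate 2 and 3705 without libraries with midbrain genes. BD-FLPlus ran from 4153 to 5134 and BD-FLY from 4012 to 5306. The BD minus WT difference was called for 26 genes, 195 with DESeq2, 4 without libraries with midbrain genes and 6 to 373 with 1 WT library left out. The difference of steps ran from 1419 to 2596. The cause of these differences was not tested.

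Without P13 replicates 3 and 5 the list medians moved by more than the spread between libraries for immature granule neurons (-1.31 to -1.69), interneurons (0.15 to 0.42), AMPA and kainate receptors (-0.04 to 0.12), AMPA auxiliary subunits (-1.26 to -0.69), sodium channels (0.55 to 0.84), HCN channels (-0.10 to 0.32), synaptic organisers (-0.54 to -0.26), axon guidance (-0.76 to -0.40), neurofilaments (-0.64 to -0.29), astrocytes (-0.0026 to 0.17), microglia (-0.58 to -0.13), lecticans (-0.61 to -0.071), complement (-0.21 to 0.34), interferon (0.69 to 1.06) and pons and medulla genes (-2.56 over the 1 gene tested with 10 libraries to -3.89 over the 3 tested with 8). The summed level of the pons and medulla genes was uneven in the 3 P13 libraries kept, at 1.94 to 46.0 CPM. At P30+ it was 1.19 to 3.58 CPM. Of 240 named genes tested with 10 libraries, 199 kept their side of the threshold without P13 replicates 3 and 5. These had no called change of direction. Genes uncalled in both fits count among them even where the sign changed, such as Arntl (0.169 to -0.133). Another 29 were newly called, 11 lost their call and 1, Vamp1, turned and was called with 8 libraries. Its value was 0.84 and, with the listing run as a covariate as well, 0.93. Foxp2 turned to 0.19 (adjusted p 0.63, edgeR) under that last setting alone. Of 163 named genes called with 10 libraries 41 lost the call with the listing run as a covariate, and 21 without at least 1 single library: Aqp4, Cacna2d3, Chn2, Dnmt3a, Ezh2, Foxp2, Gap43, Gria1, Gria4, Grin2c, Grin2d, Grin3a, Grm4, H2-D1, Itpr1, Npas4, Pcna, Pcp4, Scn3a, Slc12a2 and Tnc. The median over all genes was -0.027 with TMM, -0.014 with DESeq2 size factors and -0.066 with library totals. The self-test changed far fewer genes than were called in the data, so its recoveries do not carry over to the real comparison.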
